A study of Mus musculus with 19 samples.

Results

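Neutrophils recovered from mouse tumours (tumour-associated neutrophils, TAN, n = 3) were set against neutrophils from the spleens of mice that carried tumours (G-MDSC, n = 4), across all genes measured. The arrays were chosen by their sample titles, TAN numbered 1, 2 and 4 and G-MDSC numbered 1 to 4, which makes 7 of the 19 arrays of the series. G-MDSC stands for granulocytic myeloid-derived suppressor cells, a name for neutrophils that build up in the spleen of tumour hosts and hold back T cells. Neither group's labels name an agent, and both come from tumour-bearing animals. The labels call every sample a clonal mouse. The strain, the age, the tumour line and the way the cells were purified are not given in the sources used here. The other 12 arrays, of naive bone marrow neutrophils (NN, n = 7) and of TAN after the TGF-beta receptor kinase inhibitor SM16 (n = 5), lent their spread and their batches to the fit.

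Neutrophils are made in the marrow, where they fill azurophil, specific and gelatinase granules in successive stages of maturation and then stop transcribing most granule genes. They leave for the blood and reach tissues along chemokine gradients read mainly by Cxcr2. In tumours they are known to release chemokines, cytokines and matrix proteases, and both tumour-restraining and tumour-promoting states have been described. In the spleen of tumour hosts, immature neutrophils expand and suppress T cells, among other ways by using up arginine.

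Each gene is given by its level, the log2 of its background-corrected and quantile-normalized intensity, and each change is TAN minus G-MDSC on that scale. Of 25697 probes, each TAN array detected 9599 to 10773 and each G-MDSC array 11283 to 11435. The dimmest probe read 53.9 to 63.1 on TAN arrays and 10.5 to 17.7 on G-MDSC arrays, so the groups lie in different array batches that the labels do not name, and batch and group cannot be told apart within these 7 arrays. NN arrays fall in both batches, and a fit with batch as a term reads the batch difference from them. Within TAN, replicates 1 and 2 formed a pair away from replicate 4. They correlated with each other at 0.992 across genes, and with TAN replicate 4 at 0.881 to 0.891. On TAN replicates 1 and 2, the distance between a pair of probes for the same gene lay more than 2 log2 units from its NN mean for 32.1% and 30.7% of 890 genes, against 4.38% on TAN replicate 4 and at most 1.69% on a G-MDSC array. G-MDSC replicate 1 carried lymphocyte transcripts that the other G-MDSC arrays had at lower levels, as described below. Whether each replicate was its own animal is not given in the sources used here, and the p-values therefore reflect spread between preparations that may be technical. In RNA of whole preparations, fewer cells of a type and less RNA per cell cannot be told apart.

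Before the results, the labels were set against marker genes. Some neutrophil transcripts were bright in both groups: S100a8, an abundant cytoplasmic calcium-binding protein of neutrophils, had levels of 15.65, 15.72 and 15.84 on TAN replicates 1, 2 and 4, against 15.54, 15.36, 15.76 and 15.60 on G-MDSC replicates 1 to 4. Of 14 neutrophil markers tested, however, 11 were called lower in TAN and 1 higher. Padi4 was undetected on every TAN array, and Itgam had levels of 6.18, 6.17 and 6.67 on TAN replicates 1, 2 and 4. The summed linear level of 14 neutrophil markers was 203000 to 238000 on TAN arrays and 395000 to 429000 on G-MDSC arrays. Markers of other cells were also present. The 15 macrophage and monocyte markers summed to 37000 to 110000 on TAN arrays, against 8930 to 11800 on G-MDSC arrays. Epithelial and mesothelial markers (10 genes) summed to 2890 to 5780 in TAN and 384 to 426 in G-MDSC, where 7 of the 10, among them Krt8 and Msln, were detected on no array. Fibroblast markers (12 genes) summed to 1700 to 2380 in TAN and 349 to 2350 in G-MDSC, with 7 undetected on every G-MDSC array, among them Col1a1, Col3a1 and Dcn. B and plasma cell markers (9 genes) went the other way, with sums of 606 to 993 in TAN and 1200 to 25100 in G-MDSC. Their high value was that of G-MDSC replicate 1, whose median over the list was 10.3, against 7.01 to 7.63 on the other G-MDSC arrays. The part of these other cells in the differences that follow was not tested.

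**Figure D1:**
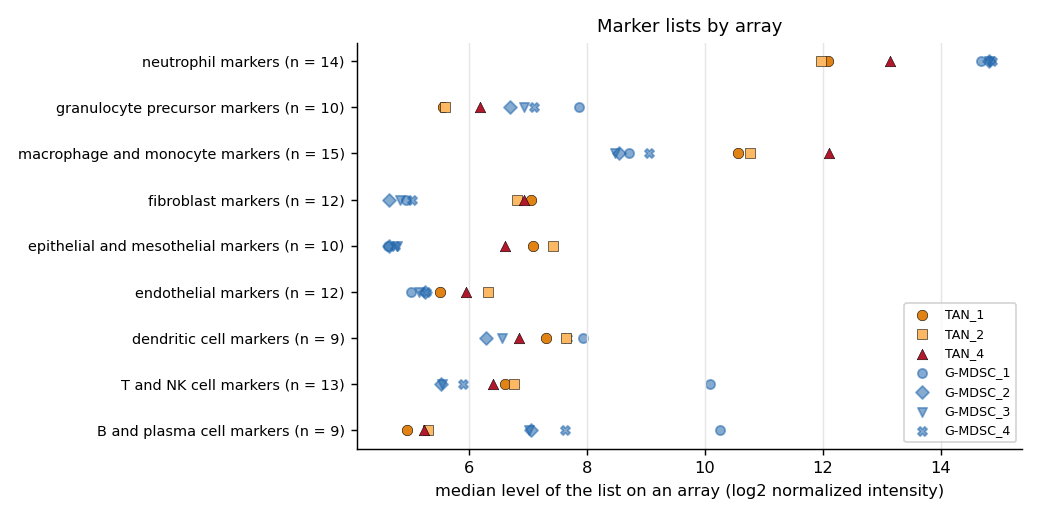
Median level of each marker list (rows, with the number of genes tested) on each array, as log2 normalized intensity. Orange and red symbols are the TAN arrays and blue ones the G-MDSC arrays. Macrophage, fibroblast and epithelial lists lie higher on all 3 TAN arrays, the neutrophil list lies lower, and G-MDSC replicate 1 stands apart for T and B cell markers.

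With a limma fit of all 4 groups and a Benjamini-Hochberg adjusted p under 0.05, 3585 of 9523 genes were called higher in TAN (37.6%) and 2437 lower (25.6%), which is 63.2% of genes tested. Each SE and adjusted p rests on a spread per gene shared by all 4 groups. Where TAN replicate 4 stands apart from TAN replicates 1 and 2, that spread can understate the spread among the TAN arrays. The median change over all genes was 0.188. With median scaling in place of quantile normalization that median was -0.149 and the split was 2291 genes higher and 3267 lower, so changes close to 0 have no settled direction and gene groups are read beside the median of all genes. Counts of calls in a gene list are likewise read beside the shares of all genes, 37.6% higher and 25.6% lower. With the batch term, 2256 genes were called higher (23.7%) and 1629 lower (17.1%), and with TAN replicate 4 as the only TAN array 2251 were higher (23.6%) and 1923 lower (20.2%). In that last fit TAN has a single array, whose spread is taken from the remaining groups. Of the 6022 genes called in the first fit, 98 (1.63%) had the opposite sign with the batch term and 425 (7.06%) with TAN replicate 4 alone. With the batch term 0 genes were called in the opposite direction. The fits share arrays, so neither is an independent check of the first. Within NN, the difference between the batches called 407 genes (4.27%). The gene Arhgap45, a GTPase-activating protein chosen after its values were seen, shows what that term removes. Arhgap45 had levels of 13.91, 13.63 and 12.88 on TAN replicates 1, 2 and 4, against 4.22, 4.23, 4.24 and 4.21 on G-MDSC replicates 1 to 4, a change of 9.25, but NN arrays averaged 13.87 in the batch of TAN and 4.21 in the batch of G-MDSC, and the change with the batch term was -0.42 (adjusted p = 0.266).

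For 49.6% of genes the TAN and G-MDSC arrays did not overlap, with TAN higher in 2856 and lower in 1867 (19.6%). Genes called in the same direction in all 3 fits, with no overlap between the arrays of TAN and G-MDSC, numbered 1509 higher in TAN (15.8%) and 996 lower (10.5%). These are called three-fit genes below, and a change is said to be three-fit where it meets that rule. Of the 2505, 57 were also called between the NN batches.

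**Figure D2:**
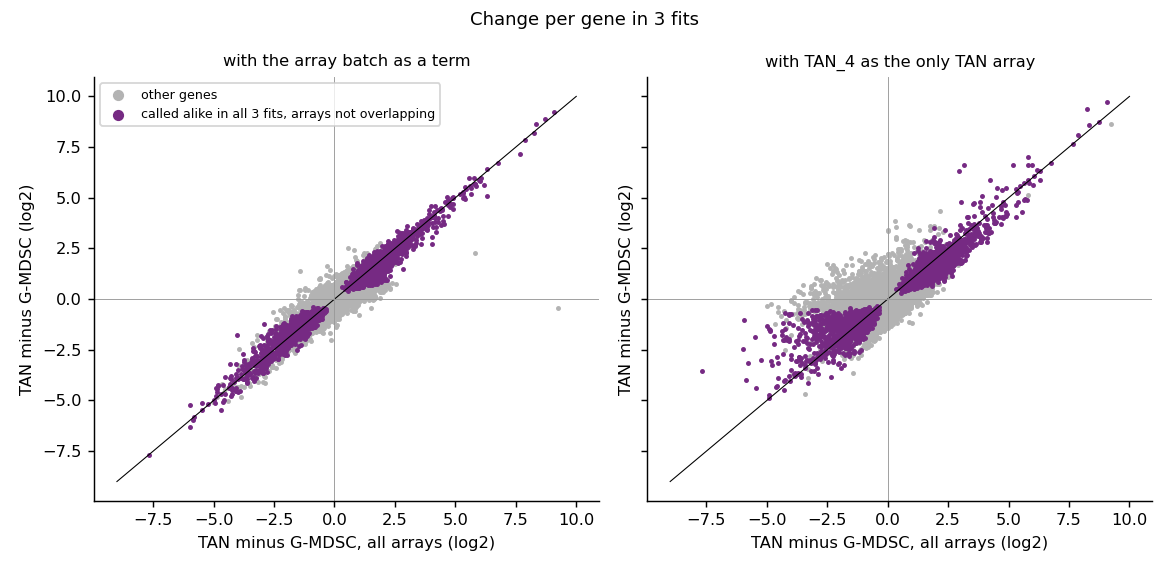
Change per gene, TAN minus G-MDSC in log2 units, in the fit of all arrays (x axes) against the fit with the array batch as a term (left, y axis) and the fit with TAN replicate 4 as the only TAN array (right, y axis). Purple points are the 2505 genes called alike in all 3 fits without overlap between arrays, grey points the other genes, and the black line marks equal change. In the right panel many genes that are lower in the x-axis fit lie above the line.

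Among three-fit genes, the largest rises in TAN were those of monocyte-attracting chemokines. Ccl8, Ccl12, Ccl7 and Ccl2 act on the receptor Ccr2 of monocytes or on related receptors. Ccl8 had levels of 13.52, 13.94 and 14.71 on TAN replicates 1, 2 and 4, against 4.74, 4.98, 4.46 and 5.73 on G-MDSC replicates 1 to 4. Ccl12 had levels of 13.78, 14.04 and 13.93 on TAN replicates 1, 2 and 4, against 4.67, 4.60, 5.16 and 6.36 on G-MDSC replicates 1 to 4, and Ccl7 of 12.91, 13.42 and 13.56 on TAN replicates 1, 2 and 4, against 4.95, 4.69, 5.00 and 5.26 on G-MDSC replicates 1 to 4. Every TAN array was far above every G-MDSC array for all 3 genes. Their changes were 9.08 ± 0.28 (SE, adjusted p = 6.41e-15), 8.72 ± 0.32 (SE, adjusted p = 8.25e-14) and 8.32 ± 0.22 (SE, adjusted p = 5.51e-16). Ccl7 was detected on no G-MDSC array, so it was at least 238-fold higher in TAN, and Ccl8 and Ccl12 were each detected on 1 of 4 G-MDSC arrays. Here and below, such bounds come from the levels without the batch term, and a change with that term can be smaller. Ccl2, known as a main recruiter of monocytes, had levels of 8.71, 9.30 and 11.49 on TAN replicates 1, 2 and 4, against 7.10, 4.87, 4.70 and 5.78 on G-MDSC replicates 1 to 4, a change of 4.22 ± 0.54 (SE, adjusted p = 2.01e-06). Its TAN arrays all lay above the G-MDSC arrays, with TAN replicate 4 the highest.

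Across 31 listed chemokine ligands, 20 of 24 tested members were called higher in TAN and 1 lower, with a median change of 3.25, or 2.95 with genes undetected in a group set at their bounds, against 0.188 over all genes. Of the 24, 15 were three-fit rises and 1 a three-fit fall. Pf4, a chemokine of platelet granules that macrophages also make, changed by 6.32 ± 0.26 (SE, adjusted p = 3.8e-13). Ccl17, which draws T cells that carry Ccr4, had levels of 11.19, 11.06 and 9.23 on TAN replicates 1, 2 and 4, against 4.70, 5.43, 5.04 and 4.51 on G-MDSC replicates 1 to 4 and changed by 5.57 ± 0.33 (SE, adjusted p = 8.02e-11). The rise held on each TAN array, and TAN replicate 4 was the lowest of them. Further members, chosen after their values were seen, span the functional classes of the family. Cxcl16, a transmembrane ligand of Cxcr6, had levels of 12.37, 12.40 and 12.54 on TAN replicates 1, 2 and 4, against 6.72, 6.75, 6.45 and 7.31 on G-MDSC replicates 1 to 4, a change of 5.63 ± 0.24 (SE, adjusted p = 6.22e-13). Cxcl9, an interferon-gamma-induced ligand of Cxcr3, changed by 5.31 ± 0.26 (SE, adjusted p = 4.06e-12), and Cxcl13, which draws B cells, by 3.56 ± 0.38 (SE, adjusted p = 2.55e-07). Among ligands of neutrophils' own receptor Cxcr2, Cxcl1 had levels of 13.85, 13.78 and 13.85 on TAN replicates 1, 2 and 4, against 11.96, 7.32, 8.30 and 8.66 on G-MDSC replicates 1 to 4, and Cxcl3 of 8.97, 8.66 and 7.42 on TAN replicates 1, 2 and 4, against 4.35, 4.58, 4.35 and 4.38 on G-MDSC replicates 1 to 4. Cxcl3 was detected on no G-MDSC array and was at least 7.73-fold higher in TAN, with an adjusted p of 4.77e-09, whereas the change of Cxcl1, 4.76 ± 0.64 (SE, adjusted p = 3.48e-06), stood beside a high value on G-MDSC replicate 1. Ccl9, a myeloid chemokine, rose on every TAN array, 13.67 ± 0.16 in TAN and 11.43 ± 0.29 in G-MDSC (SD, n = 3 and 4), and Ccl4, an inflammatory chemokine of activated myeloid cells, changed by 2.94 ± 0.39 (SE, adjusted p = 3.51e-06), with signals up to 94.6% of the highest on an array, near which the size of a change may be compressed. The 1 fall was that of Ccl6, a myeloid chemokine close to Ccl9 in sequence family, with levels of 7.85, 8.26 and 11.52 on TAN replicates 1, 2 and 4, against 12.01, 12.91, 12.85 and 12.45 on G-MDSC replicates 1 to 4. It was lower on each TAN array, least so on TAN replicate 4, and changed by -3.34 ± 0.53 (SE, adjusted p = 2.32e-05), or -1.03 with TAN replicate 4 alone.

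Ccl3, Ccl5 and Cxcl10 were not called. Ccl3, an inflammatory chemokine that acts on Ccr1, had levels of 13.92, 13.67 and 15.87 on TAN replicates 1, 2 and 4, against 14.90, 12.70, 13.35 and 13.39 on G-MDSC replicates 1 to 4. TAN replicate 4 was above every G-MDSC array and the other TAN arrays overlapped them, and the change was 0.90 ± 0.53 (SE, adjusted p = 0.148) over all arrays and 2.28 (adjusted p = 0.0106) with TAN replicate 4 alone. Ccl5, a T cell attractant, changed by 0.55 ± 0.38 (SE, adjusted p = 0.212). Cxcl10, a second Cxcr3 ligand chosen after its values were seen, changed by 0.90 ± 0.64 (SE, adjusted p = 0.227) over all arrays and by 3.66 with TAN replicate 4 alone (adjusted p = 7.43e-07).

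The upstream sequences of Cxcl1 and Cxcl3 are shown because both genes were three-fit rises and both hold the NF-kB motif, GGGA and TTCC with 2 bases of any kind between them, searched on both strands in the 250 bases before the first listed start of a gene in RefSeq annotation of build GRCm38.p6. The motif stood in 316 of 27025 promoters of that length, 1 for each gene (1.17%) and in 4 of 22 on the chemokine list (18.2%), which were those of Cxcl1, Cxcl2, Cxcl3 and Cxcl10. It stood in 1.64% of 1218 promoters of three-fit rises, in 1.23% of 810 of three-fit falls and in 2 of 20 on the list of specific and gelatinase granule proteins. The windows are Cxcl1 chr5:90890995-90891244 on the plus strand and Cxcl3 chr5:90785851-90786100 on the plus strand. Capitals mark each match on either strand, and overlapping matches run together.
Cxcl1: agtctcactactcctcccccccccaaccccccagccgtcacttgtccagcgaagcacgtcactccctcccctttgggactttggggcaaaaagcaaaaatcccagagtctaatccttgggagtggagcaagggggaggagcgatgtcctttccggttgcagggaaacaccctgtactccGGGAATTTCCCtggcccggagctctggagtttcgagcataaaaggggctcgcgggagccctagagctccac
Cxcl3: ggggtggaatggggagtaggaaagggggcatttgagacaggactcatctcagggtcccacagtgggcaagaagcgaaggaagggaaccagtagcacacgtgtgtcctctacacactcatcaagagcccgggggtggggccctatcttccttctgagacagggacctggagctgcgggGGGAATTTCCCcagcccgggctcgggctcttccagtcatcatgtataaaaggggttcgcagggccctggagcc
In both, 2 matches overlap, 1 on each strand, and begin at -71 and -70 from the start in Cxcl1 and at -73 and -72 in Cxcl3. A match is a description of the letters and not a bound site.

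Cytokines and growth factors moved upward in number: 21 of 32 tested members were called higher in TAN and 6 lower, with a median of 1.3 (1.14 at bounds) and 15 three-fit rises against 5 three-fit falls. Il1a, the cell-bound alarm cytokine of the interleukin-1 family, had levels of 10.82, 10.59 and 11.95 on TAN replicates 1, 2 and 4, against 5.91, 5.12, 4.86 and 5.40 on G-MDSC replicates 1 to 4. Its TAN arrays lay at least 4 log2 units above the G-MDSC arrays, of which 1 had a detected signal, and the change was 5.80 ± 0.34 (SE, adjusted p = 7.25e-11). Il1b, its secreted relative, was not called at 0.08 ± 0.17 (SE, adjusted p = 0.686), with levels of 15.76, 15.78 and 15.78 on TAN replicates 1, 2 and 4, against 15.72, 15.61, 15.78 and 15.64 on G-MDSC replicates 1 to 4, and its signal reached 91.2% of the highest signal on an array. Mif, which holds macrophages in place and is induced by low oxygen, changed by 3.59 ± 0.28 (SE, adjusted p = 3.24e-09). Pdgfa, a growth factor for fibroblasts, changed by 3.52 ± 0.26 (SE, adjusted p = 1.88e-09), and Ifnb1, the type I interferon made on pathogen sensing, was detected on no G-MDSC array and was at least 6.12-fold higher in TAN (adjusted p = 2.58e-09). Vegfa, the main angiogenic factor, had levels of 10.55, 10.80 and 10.16 on TAN replicates 1, 2 and 4, against 9.62, 8.95, 9.14 and 8.82 on G-MDSC replicates 1 to 4. Its TAN arrays were all above the G-MDSC arrays by a small margin, and the change was 1.37 ± 0.20 (SE, adjusted p = 9.01e-06). Inhba, which encodes the activin A subunit and was chosen after its values were seen, changed by 3.11 ± 0.22 (SE, adjusted p = 1.22e-09). Tnf, the inflammatory cytokine, was not called: its levels were 10.52, 10.70 and 13.93 on TAN replicates 1, 2 and 4, against 12.60, 10.87, 12.03 and 11.35 on G-MDSC replicates 1 to 4, with TAN replicate 4 above and TAN replicates 1 and 2 below every G-MDSC array. The change in Tnf was 0.01 ± 0.57 (SE, adjusted p = 0.993) over all arrays, 2.22 with TAN replicate 4 alone (adjusted p = 0.00158) and -1.10 without TAN replicate 4 (adjusted p = 0.0131).

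Arginase 1, the enzyme that splits arginine and through which myeloid cells starve T cells, separated the groups almost as widely as the chemokines. Arg1 had levels of 12.23, 12.40 and 14.02 on TAN replicates 1, 2 and 4, against 4.47, 4.36, 4.53 and 5.16 on G-MDSC replicates 1 to 4. No G-MDSC array had a detected signal, so Arg1 was at least 178-fold higher in TAN, a change of 8.25 ± 0.32 (SE, adjusted p = 2.33e-13), or 8.18 with the batch term and 9.39 with TAN replicate 4 alone. Arg2, the mitochondrial arginase, had levels of 12.64, 12.48 and 12.49 on TAN replicates 1, 2 and 4, against 12.33, 12.47, 12.23 and 12.23 on G-MDSC replicates 1 to 4, a change of 0.22 ± 0.16 (SE, adjusted p = 0.231) that was not called, though the batch term gave 0.61 (adjusted p = 0.0197) and median scaling -0.07. Ass1, which regenerates arginine from citrulline, averaged 10.47 ± 0.43 in TAN and 7.47 ± 0.90 in G-MDSC (SD, n = 3 and 4, adjusted p = 7.13e-06), while Odc1, which turns ornithine into polyamines, changed by 1.97 ± 0.40 (SE, adjusted p = 0.000279), although G-MDSC replicate 1 overlapped the TAN arrays there and TAN replicate 4 alone gave 1.25, not called. Hpgd, which inactivates prostaglandins, was undetected on every TAN array and at least 5.27-fold lower (adjusted p = 1.25e-10). Over the list of arginine, nitric oxide and lipid mediator enzymes, 9 of 20 tested members were called higher in TAN and 5 lower, with a median of 0.213. Over all genes 37.6% were higher and 25.6% lower, with a median of 0.188.

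Ch25h, which makes the immune-modulating oxysterol 25-hydroxycholesterol, was the fifth largest rise among three-fit genes, with levels of 12.36, 12.49 and 12.73 on TAN replicates 1, 2 and 4, against 4.91, 4.39, 4.56 and 4.76 on G-MDSC replicates 1 to 4. It was detected on every TAN array and on no G-MDSC array, at least 140-fold higher in TAN (adjusted p = 7.39e-16).

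Genes of macrophages and of tissue remodelling filled much of the rest of the list of largest rises. Dab2, an endocytic adaptor, had levels of 13.02, 13.47 and 13.27 on TAN replicates 1, 2 and 4, against 4.54, 5.63, 5.67 and 6.58 on G-MDSC replicates 1 to 4. Trem2, a lipid-sensing receptor of tissue macrophages, had levels of 12.21, 12.34 and 12.10 on TAN replicates 1, 2 and 4, against 5.74, 6.99, 6.22 and 6.53 on G-MDSC replicates 1 to 4. Fcrls, a scavenger-type receptor known from microglia and macrophages, was detected on no G-MDSC array and was at least 39.5-fold higher in TAN. For each of the 3 genes the TAN arrays lay close together and far above the G-MDSC arrays. The changes were 7.65 ± 0.35 (SE, adjusted p = 1.44e-12) for Dab2, 5.85 ± 0.24 (SE, adjusted p = 3.8e-13) for Trem2 and 6.19 ± 0.26 (SE, adjusted p = 4.67e-13) for Fcrls. Of 15 macrophage and monocyte markers tested, 11 were called higher in TAN and 1 lower, with a median of 1.9 over all arrays and 3.4 with TAN replicate 4 alone. Folr2, a folate receptor of resident macrophages, had levels of 9.69, 10.13 and 11.71 on TAN replicates 1, 2 and 4, against 4.76, 4.89, 4.53 and 4.70 on G-MDSC replicates 1 to 4, highest on TAN replicate 4, and Ms4a7 of 10.98, 11.51 and 12.12 on TAN replicates 1, 2 and 4, against 5.59, 7.03, 6.85 and 7.08 on G-MDSC replicates 1 to 4. C1qa, a complement component of macrophages chosen after its values were seen, had levels of 7.49, 7.73 and 12.97 on TAN replicates 1, 2 and 4, against 8.90, 9.21, 9.24 and 9.06 on G-MDSC replicates 1 to 4, so that TAN replicate 4 was above and TAN replicates 1 and 2 were below every G-MDSC array.

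Matrix-degrading enzymes were also higher. Mmp13, a collagenase, had levels of 12.58, 13.37 and 12.95 on TAN replicates 1, 2 and 4, against 6.11, 5.96, 5.94 and 6.85 on G-MDSC replicates 1 to 4 and changed by 6.75 ± 0.30 (SE, adjusted p = 6.82e-13). Mmp14, the membrane-bound protease that activates other metalloproteinases, had levels of 12.15, 12.23 and 11.62 on TAN replicates 1, 2 and 4, against 4.97, 6.21, 6.12 and 6.64 on G-MDSC replicates 1 to 4 and changed by 6.02 ± 0.32 (SE, adjusted p = 1.17e-11). Timp1, an inhibitor of metalloproteinases, was at least 27.9-fold higher in TAN (adjusted p = 3.8e-13), since no G-MDSC array had a detected signal. Ctsk, a collagen-cleaving lysosomal protease, changed by 5.40 ± 0.30 (SE, adjusted p = 1.95e-11). TAN and G-MDSC arrays did not overlap for any of these 4 genes. Plau, the urokinase protease, and its receptor Plaur, both chosen after their values were seen, changed by 3.91 ± 0.41 (SE, adjusted p = 1.97e-07) and 2.07 ± 0.29 (SE, adjusted p = 5.67e-06). Mmp9, the gelatinase stored in neutrophil granules, was not called at -0.29 ± 0.14 (SE, adjusted p = 0.0844), and Mmp8, the collagenase of specific granules, was lower, as given with the granule genes. In all, 12 of 22 tested members were called higher in TAN and 2 lower among matrix proteases, inhibitors and matrix proteins, with a median of 0.994, and 11 of the rises were three-fit.

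Lysosomal genes followed: 20 of 29 tested members were called higher in TAN and 4 lower, with a median of 0.968 and 16 three-fit rises. Gpnmb, a glycoprotein of lysosome-rich phagocytes, was at least 16.9-fold higher in TAN (adjusted p = 2.32e-10). Ctsz, a lysosomal carboxypeptidase, changed by 3.05 ± 0.15 (SE, adjusted p = 3.65e-12). Against that direction, the brightest probe of Ctsa, a protease that protects lysosomal glycosidases, changed by -4.28 ± 1.06 (SE, adjusted p = 0.00172), but 2 of its other 3 probes were not called (adjusted p = 0.103 and 0.574) and were detected on 1 TAN array.

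Transcripts of epithelium, mesothelium and fibroblasts were among the rises as well, beside single genes known from other cells. Krt8, a keratin of simple epithelia and mesothelium, had levels of 11.49, 11.30 and 10.73 on TAN replicates 1, 2 and 4, against 4.56, 4.90, 5.01 and 4.99 on G-MDSC replicates 1 to 4. It was detected on no G-MDSC array and was at least 54.6-fold higher in TAN, a change of 6.31 ± 0.33 (SE, adjusted p = 1e-11). With the batch term the change in Krt8 was 5.11, and Krt8 was also called between the NN batches (1.20, limma adjusted p = 0.00951). Its partner Krt18 was at least 18.2-fold higher, and Msln, the mesothelial surface protein, at least 9.7-fold higher. All 3 genes were higher on TAN replicates 1 and 2 than on TAN replicate 4. Bgn and Dcn, proteoglycans of fibroblasts, were at least 13.4-fold and 6.19-fold higher in TAN. Over the marker lists, 7 of 10 epithelial and mesothelial and 8 of 12 fibroblast genes tested were called higher in TAN and 0 lower in either. Rnase2a, an eosinophil-associated ribonuclease, changed by 6.06 ± 0.26 (SE, adjusted p = 6.22e-13) with TAN levels of 11.83, 12.07 and 11.96, while among eosinophil, basophil and mast cell markers 1 of 10 was called higher and 2 lower. Pmp22, a membrane protein of myelin and other cells, was at least 37.7-fold higher in TAN (adjusted p = 1.89e-11).

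**Figure D3:**
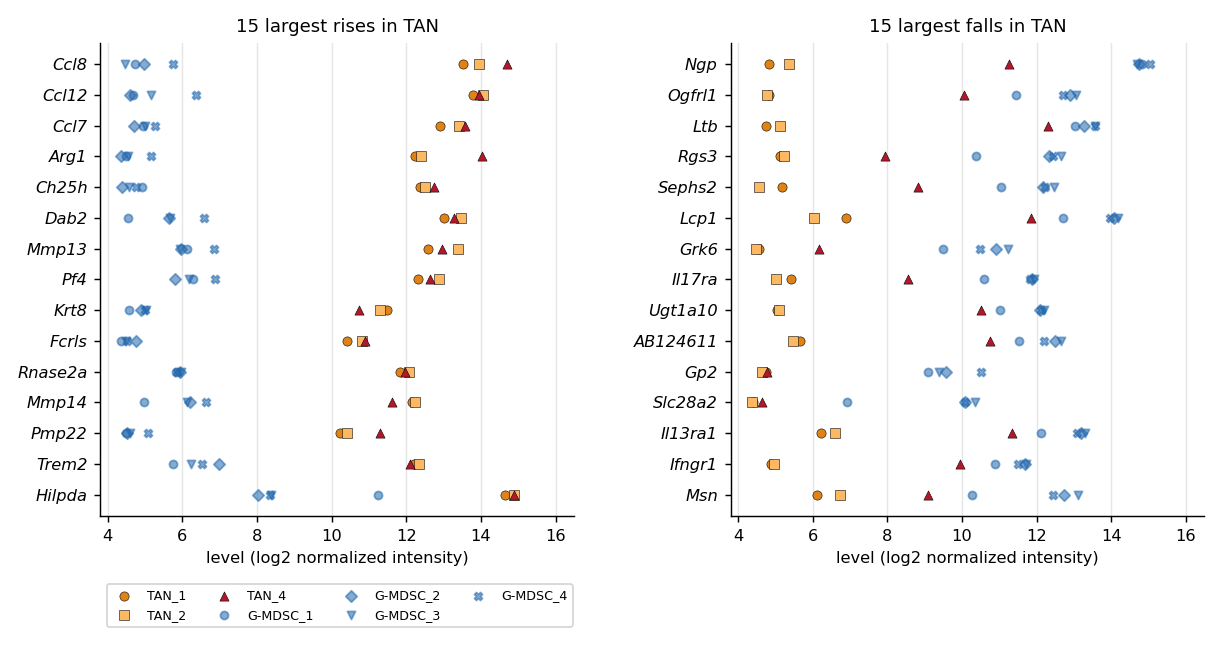
Level of the 15 three-fit genes with the largest rise (left) and the 15 with the largest fall (right) in TAN, among genes detected on every array of the higher group, on each array, as log2 normalized intensity. Orange and red symbols are TAN arrays and blue ones G-MDSC arrays. For the rises all TAN arrays lie far above the G-MDSC arrays, and for most falls TAN replicates 1 and 2 lie well below TAN replicate 4, which itself lies below the G-MDSC arrays.

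Genes induced by low oxygen were mostly higher in TAN. Hilpda, which is induced by hypoxia and keeps lipid droplets from being broken down, had levels of 14.63, 14.88 and 14.89 on TAN replicates 1, 2 and 4, against 11.23, 8.04, 8.38 and 8.35 on G-MDSC replicates 1 to 4. All TAN arrays were above all G-MDSC arrays, and G-MDSC replicate 1 was above the other 3. Hilpda changed by 5.80 ± 0.50 (SE, adjusted p = 1.48e-08). By a second, dimmer probe Hilpda changed by 3.30 (limma adjusted p = 0.00084). That probe read 8.67, 8.87 and 13.13 on TAN replicates 1, 2 and 4, against 8.69 on G-MDSC replicate 1, so the groups overlapped there. P4ha1, a collagen prolyl hydroxylase, had levels of 9.23, 9.21 and 8.53 on TAN replicates 1, 2 and 4, against 6.13, 4.81, 4.74 and 5.72 on G-MDSC replicates 1 to 4 and changed by 3.64 ± 0.32 (SE, adjusted p = 1.57e-08). Egln3, the oxygen-sensing prolyl hydroxylase that is itself induced by HIF, had levels of 12.72, 13.01 and 12.41 on TAN replicates 1, 2 and 4, against 9.22, 9.37, 9.33 and 9.44 on G-MDSC replicates 1 to 4 and changed by 3.37 ± 0.18 (SE, adjusted p = 1.69e-11). Of 21 hypoxia-induced genes tested, 14 were called higher in TAN and 4 lower, with a median of 1.44 (1.26 at bounds), and 12 were three-fit rises. Plin2, a lipid droplet coat protein, went lower over all arrays (-2.46 ± 0.71, SE, limma adjusted p = 0.00537), whereas TAN replicate 4 alone gave 0.72 (adjusted p = 0.0961).

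Glycolysis enzymes shared the direction: 12 of 18 tested members were called higher in TAN and 4 lower. Their median was 0.945, or 0.586 with the batch term and 1.56 with TAN replicate 4 alone. With the batch term 9 members were called higher and 3 lower, against 23.7% and 17.1% of all genes. Tpi1, the triose phosphate isomerase, had levels of 14.64, 14.65 and 14.35 on TAN replicates 1, 2 and 4, against 11.43, 11.31, 11.40 and 11.45 on G-MDSC replicates 1 to 4, a change of 3.15 ± 0.11 (SE, adjusted p = 2.86e-14), with both groups tight and apart. Pfkl, the phosphofructokinase that commits glucose to glycolysis, changed by 2.85 ± 0.14 (SE, adjusted p = 5.94e-12), and Aldoc, an aldolase, by 3.11 ± 0.20 (SE, adjusted p = 3.16e-10). Hk1, the housekeeping hexokinase, was lower over all arrays (-2.49 ± 0.59, SE, limma adjusted p = 0.00111), with levels of 4.66, 4.62 and 7.45 on TAN replicates 1, 2 and 4, and was not called with TAN replicate 4 alone. Chosen after their values were seen, Hk2, the inducible hexokinase, changed by 2.30 ± 0.14 (SE, adjusted p = 1.2e-10), Slc2a1, the glucose transporter Glut1, by 2.11 ± 0.19 (SE, adjusted p = 3.46e-08) and Ldha, which makes lactate, by 1.68 ± 0.09 (SE, adjusted p = 7.64e-12).

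The upstream sequences of P4ha1, Egln3 and Ldha are shown because each was a three-fit rise and holds ACGTG, the core of the element that HIF binds, searched on both strands in the same 250 bases. ACGTG stood in 16.6% of all 27025 promoters, in 13 of 22 promoters on the hypoxia list (59.1%) and in 10 of 22 on the glycolysis list (45.5%). It stood in 23.2% of 1218 promoters of three-fit rises and in 18.9% of 810 promoters of three-fit falls. The windows, in RefSeq build GRCm38.p6, are P4ha1 chr10:59323046-59323295 on the plus strand, Egln3 chr12:54203875-54204124 on the minus strand and Ldha chr7:46845554-46845803 on the plus strand. Capitals mark each match, and CACGTG is a match on both strands.
P4ha1: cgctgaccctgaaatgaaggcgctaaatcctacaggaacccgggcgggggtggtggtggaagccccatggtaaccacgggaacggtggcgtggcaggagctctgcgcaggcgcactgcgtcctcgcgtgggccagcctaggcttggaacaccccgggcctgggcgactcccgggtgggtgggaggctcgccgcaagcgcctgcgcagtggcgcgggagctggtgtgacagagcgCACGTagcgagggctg
Egln3: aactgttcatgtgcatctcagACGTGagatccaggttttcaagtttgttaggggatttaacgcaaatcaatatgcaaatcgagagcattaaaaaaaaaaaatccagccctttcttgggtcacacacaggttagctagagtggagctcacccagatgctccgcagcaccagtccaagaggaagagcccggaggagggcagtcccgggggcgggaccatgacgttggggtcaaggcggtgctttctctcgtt
Ldha: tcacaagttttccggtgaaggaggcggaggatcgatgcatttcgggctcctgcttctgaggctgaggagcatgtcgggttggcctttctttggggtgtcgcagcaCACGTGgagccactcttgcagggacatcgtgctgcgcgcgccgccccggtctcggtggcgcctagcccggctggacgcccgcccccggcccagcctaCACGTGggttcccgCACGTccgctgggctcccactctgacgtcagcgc
The hypoxia list was itself drawn up from known HIF targets.

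Mitochondrial and cell division genes were also higher in part. Of 57 oxidative phosphorylation subunits, 36 were called higher in TAN and 6 lower, with a median of 0.671 and 17 three-fit rises against 0 three-fit falls. Atp5g1, a ring subunit of the ATP synthase, changed by 2.32 ± 0.22 (SE, adjusted p = 4.13e-08). Atp5pb, a stalk subunit, was lower over all arrays (-3.04 ± 0.55, SE, limma adjusted p = 9.14e-05) and not called with TAN replicate 4 alone (-1.03). Of 30 cell cycle and DNA replication genes, 18 were called higher and 1 lower, with a median of 1.07. Pbk, a mitotic kinase, had levels of 9.38, 9.20 and 8.79 on TAN replicates 1, 2 and 4, against 7.11, 6.16, 5.96 and 6.72 on G-MDSC replicates 1 to 4 and changed by 2.63 ± 0.28 (SE, adjusted p = 2.16e-07). Tpx2, a spindle assembly factor, changed by 2.30 ± 0.31 (SE, adjusted p = 4.61e-06) and Kif22, a chromosome motor, by 2.15 ± 0.31 (SE, adjusted p = 8.58e-06), and with TAN replicate 4 alone these were 1.40 and 1.10. The single fall was Hmgb2, a chromatin protein of dividing and precursor cells, with levels of 8.39, 8.33 and 8.63 on TAN replicates 1, 2 and 4, against 10.90, 12.36, 12.31 and 12.00 on G-MDSC replicates 1 to 4. Top2a, the mitotic topoisomerase chosen after its values were seen, was not called at -1.26 ± 0.55 (SE, adjusted p = 0.0536).

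Granule proteins went the other way. Of 22 specific and gelatinase granule proteins tested, of 23 listed, 1 was called higher in TAN and 17 lower. The median change was -2.38 over all arrays, -1.89 with the batch term and -1.26 with TAN replicate 4 alone, and 12 members were three-fit falls. Ngp, the neutrophilic granule protein, was the largest fall among three-fit genes, with levels of 4.82, 5.37 and 11.27 on TAN replicates 1, 2 and 4, against 14.83, 14.75, 14.69 and 15.04 on G-MDSC replicates 1 to 4. All TAN arrays were below the G-MDSC arrays, but TAN replicates 1 and 2, where Ngp was not detected, lay 6.17 log2 units below TAN replicate 4 on average. The change in Ngp was -7.67 ± 0.93 (SE, adjusted p = 1.14e-06), or -7.68 with the batch term and -3.56 with TAN replicate 4 alone. That SE rests on the spread shared by all 4 groups and understates the distance among the TAN arrays. Camp, the precursor of the antimicrobial peptide cathelicidin, had levels of 9.48, 9.17 and 10.34 on TAN replicates 1, 2 and 4, against 14.53, 14.17, 13.85 and 14.29 on G-MDSC replicates 1 to 4 and changed by -4.55 ± 0.37 (SE, adjusted p = 7.42e-09). Ltf, the iron-binding lactoferrin, had levels of 11.79, 11.49 and 12.56 on TAN replicates 1, 2 and 4, against 15.88, 15.38, 15.15 and 15.82 on G-MDSC replicates 1 to 4 and changed by -3.61 ± 0.33 (SE, adjusted p = 3.32e-08). Both genes were lower on every TAN array by 2 log2 units or more, and TAN replicate 4 was the highest of the 3. Olfm4, a matrix glycoprotein of a subset of specific granules, changed by -4.31 ± 0.56 (SE, adjusted p = 2.52e-06), or -2.70 with TAN replicate 4 alone. Lyz2, the lysozyme of neutrophils and macrophages, was called lower over all arrays by its brightest probe only. There TAN replicate 4 stood at 14.69, inside the G-MDSC range of 14.30 to 15.33, and the change with that array alone was -0.35 (adjusted p = 0.704). A second Lyz2 probe read 13.40, 13.44 and 13.73 on TAN replicates 1, 2 and 4, against 13.41 to 13.73 in G-MDSC, and its change was -0.06 (adjusted p = 0.719). Members chosen after their values were seen included Mmp8, with levels of 6.88, 6.68 and 6.56 on TAN replicates 1, 2 and 4, against 8.66, 9.46, 9.28 and 9.59 on G-MDSC replicates 1 to 4, and Chil3, the chitinase-like protein Ym1, with a change of -3.28 ± 0.39 (SE, adjusted p = 8.17e-07). Lcn2, the iron-scavenger lipocalin, changed by -1.22 ± 0.21 (SE, adjusted p = 6.75e-05), or -0.64 with TAN replicate 4 alone, where it was not called. Signals of Lcn2 and Ltf reached 98.6% and 94% of the highest on an array, so their sizes of change may be compressed.

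The upstream sequences of Ngp and Ltf are shown because both were three-fit falls and hold the C/EBP motif TTGCNNAA, the kind of element that C/EBP epsilon, the factor of specific granule genes, is known to bind. The motif stood in 9.55% of all 27025 promoters and in 6 of 20 on the granule list, with 9.63% of 810 promoters of three-fit falls and 7.64% of 1218 of three-fit rises. Both strands of the same 250 bases were searched. The windows, in RefSeq build GRCm38.p6, are Ngp chr9:110419558-110419807 on the plus strand and Ltf chr9:111019042-111019291 on the plus strand, and capitals mark each match on either strand.
Ngp: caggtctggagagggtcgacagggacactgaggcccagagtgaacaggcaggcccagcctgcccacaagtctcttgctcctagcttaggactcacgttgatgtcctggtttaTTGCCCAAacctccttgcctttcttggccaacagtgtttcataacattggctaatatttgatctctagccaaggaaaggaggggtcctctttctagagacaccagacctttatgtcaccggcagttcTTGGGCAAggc
Ltf: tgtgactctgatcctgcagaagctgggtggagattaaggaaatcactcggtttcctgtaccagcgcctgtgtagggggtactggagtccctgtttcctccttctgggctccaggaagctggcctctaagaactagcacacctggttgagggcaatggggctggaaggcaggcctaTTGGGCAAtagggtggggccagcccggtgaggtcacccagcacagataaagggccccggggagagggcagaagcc
Cebpe itself, which encodes C/EBP epsilon, had levels of 7.91, 8.37 and 8.32 on TAN replicates 1, 2 and 4, against 11.05, 10.23, 10.15 and 10.51 on G-MDSC replicates 1 to 4. Every TAN array was below every G-MDSC array, a change of -2.28 ± 0.19 (SE, adjusted p = 1.01e-08) or -2.21 with the batch term and -2.16 with TAN replicate 4 alone.

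Azurophil granule genes, made at the earliest stage, were mixed: 3 of 10 tested members were called higher in TAN and 4 lower, with a median of -0.649. Without G-MDSC replicate 1 the counts were 3 higher and 2 lower. Mpo, myeloperoxidase, had levels of 6.63, 6.72 and 6.26 on TAN replicates 1, 2 and 4, against 8.69, 6.75, 7.29 and 7.33 on G-MDSC replicates 1 to 4, a change of -0.98 ± 0.35 (SE, adjusted p = 0.0195) that was not called with the batch term (adjusted p = 0.105) or with TAN replicate 4 alone (adjusted p = 0.0532). Serpinb1a, the inhibitor of neutrophil serine proteases, changed by -4.00 ± 0.32 (SE, adjusted p = 5.06e-09). Ctsc, which activates those proteases, was higher by 2.85 ± 0.21 (SE, adjusted p = 2.26e-09). Among granulocyte precursor markers, 5 of 10 were called lower in TAN and 0 higher, and 3 were lower and 1 higher without G-MDSC replicate 1. Fcnb, ficolin B of immature granulocytes, was undetected on every TAN array and at least 7.22-fold lower (adjusted p = 5.54e-08). Of the granulopoiesis transcription factors, 3 of 13 were called higher and 5 lower. Ets1, a factor of lymphocytes as well, changed by -3.43 ± 0.44 (SE, adjusted p = 2.11e-06), or -2.09 with TAN replicate 4 alone, with 12.12 on G-MDSC replicate 1 and 9.96 to 10.32 on the others. Rara, a retinoic acid receptor, changed by -3.70 ± 0.63 (SE, adjusted p = 5.47e-05) and Spi1, the myeloid factor PU.1, by -2.29 ± 0.40 (SE, adjusted p = 6.85e-05). With TAN replicate 4 alone these were -1.01 and -0.56, and neither was called.

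**Figure D4:**
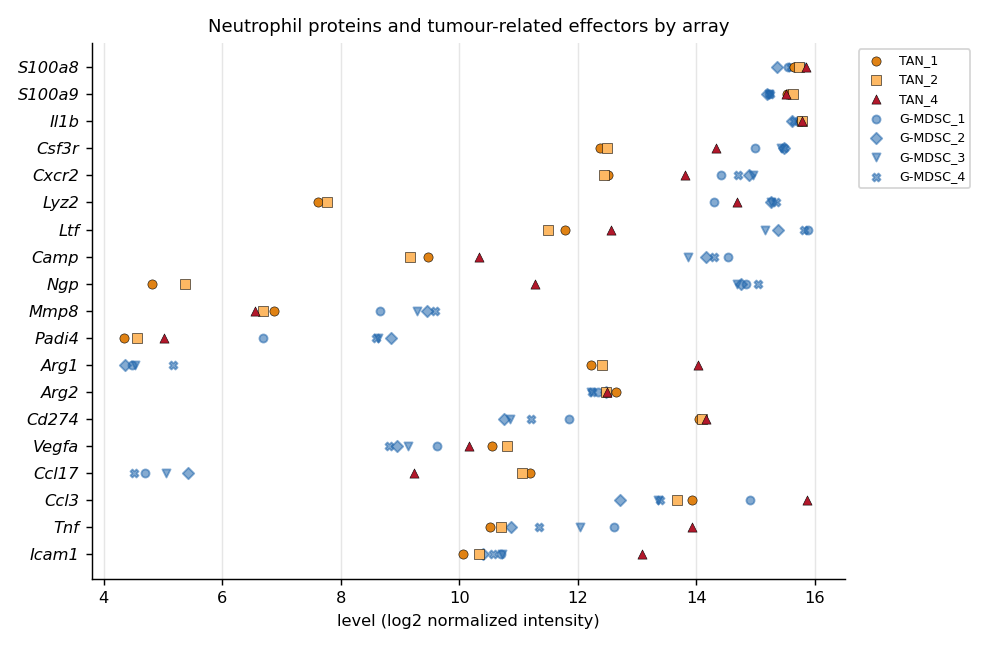
Level of neutrophil proteins and of effectors discussed for tumour neutrophils on each array, as log2 normalized intensity. Orange and red symbols are TAN arrays and blue ones G-MDSC arrays. S100a8 and Il1b are at the top of the scale in both groups. The granule genes Ltf, Camp, Ngp and Mmp8 and the histone-citrullinating enzyme gene Padi4 lie lower in TAN, and Arg1, Cd274 and Ccl17 lie higher in TAN.

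The list of S100 and related neutrophil proteins was divided. Among 17 S100 and related genes, 4 were called higher, 5 lower and 8 in neither direction. S100a8 was not called (0.17 ± 0.10, SE, limma adjusted p = 0.141). S100a9, its partner, had levels of 15.53, 15.62 and 15.52 on TAN replicates 1, 2 and 4, against 15.22, 15.19, 15.22 and 15.24 on G-MDSC replicates 1 to 4, a change of 0.34 ± 0.11 (SE, adjusted p = 0.0132) that was not called with the batch term (0.08). Their signals reached 90.8% and 86.8% of the highest signal on an array. Padi4, which citrullinates histones in neutrophil extracellular traps, was undetected on every TAN array and at least 5.03-fold lower (adjusted p = 2.65e-07). Anxa1, an inflammation-limiting annexin, had levels of 10.14, 10.55 and 10.72 on TAN replicates 1, 2 and 4, against 12.43, 12.89, 12.63 and 12.70 on G-MDSC replicates 1 to 4 and changed by -2.19 ± 0.22 (SE, adjusted p = 8.86e-08). Over all 14 neutrophil markers tested, 11 were called lower and 1 higher, with a median of -2.25 over all arrays and -1.2 with TAN replicate 4 alone. Ly6g had no tested probe.

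Receptors for cytokines had more calls lower than higher. Of 21 cytokine receptors and decoys, 11 were called lower in TAN and 3 higher, with a median of -0.589. Csf3r, the receptor for the granulocyte growth factor G-CSF, had levels of 12.37, 12.48 and 14.32 on TAN replicates 1, 2 and 4, against 14.98, 15.48, 15.43 and 15.48 on G-MDSC replicates 1 to 4. Each TAN array was below each G-MDSC array, and the change was -2.29 ± 0.30 (SE, adjusted p = 2.88e-06), or -2.15 with the batch term and -1.02 with TAN replicate 4 alone. Cxcr2, the receptor that draws neutrophils out of the marrow, had levels of 12.50, 12.45 and 13.80 on TAN replicates 1, 2 and 4, against 14.41, 14.89, 14.96 and 14.70 on G-MDSC replicates 1 to 4 and changed by -1.82 ± 0.27 (SE, adjusted p = 1.28e-05), in the same order of arrays, and by -0.94 with TAN replicate 4 alone. Cxcr4, which retains neutrophils in the marrow, had levels of 12.07, 12.25 and 12.98 on TAN replicates 1, 2 and 4, against 13.45, 12.39, 12.54 and 12.80 on G-MDSC replicates 1 to 4 and was not called (-0.36 ± 0.22, SE, limma adjusted p = 0.154). Il6ra, the interleukin-6 receptor, changed by -3.16 ± 0.57 (SE, adjusted p = 0.000101), and Tnfrsf1a, the main Tnf receptor, by -3.28 ± 0.52 (SE, adjusted p = 2.25e-05). C5ar1, the receptor for complement C5a, changed by -3.42 ± 0.72 (SE, adjusted p = 0.000417) but by -2.18 with the batch term, where it was not called (adjusted p = 0.101), and Ccr3 was undetected on every TAN array. Cx3cr1, the fractalkine receptor of monocytes, was higher by 2.27 ± 0.64 (SE, adjusted p = 0.00437) and also not called with the batch term (adjusted p = 0.152).

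Adhesion molecules leaned the same way, with 10 of 20 called lower and 2 higher, a median of -0.672. Itgb2, the beta chain of the leukocyte integrins, had levels of 5.30, 5.38 and 9.71 on TAN replicates 1, 2 and 4, against 10.20, 11.14, 11.17 and 11.05 on G-MDSC replicates 1 to 4. TAN replicates 1 and 2 lay far below TAN replicate 4, and the change was -4.09 over all arrays and -1.18 with TAN replicate 4 alone. Itgam, its partner CD11b and a common sorting marker of myeloid cells, changed by -2.71 ± 0.48 (SE, adjusted p = 8.51e-05) but by -1.58 with the batch term, where it was not called (adjusted p = 0.0598). Ceacam1, a carcinoembryonic adhesion molecule, changed by -4.02 ± 0.55 (SE, adjusted p = 4.42e-06) by its brighter probe, or -1.75 with the batch term, and by -2.18 by its other probe. Vcam1, an adhesion ligand of stromal cells and macrophages, changed by -2.07 ± 0.30 (SE, adjusted p = 8.64e-06) and by -1.05 with TAN replicate 4 alone.

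In most of the 15 largest three-fit falls, TAN replicates 1 and 2 lay far below TAN replicate 4. Ltb, lymphotoxin beta, had levels of 4.75, 5.12 and 12.31 on TAN replicates 1, 2 and 4, against 13.03, 13.27, 13.58 and 13.56 on G-MDSC replicates 1 to 4: TAN replicates 1 and 2 were not detected and TAN replicate 4 lay just under the G-MDSC arrays. Lcp1, the actin-bundling L-plastin, had levels of 6.90, 6.03 and 11.86 on TAN replicates 1, 2 and 4, against 12.72, 14.08, 14.17 and 13.97 on G-MDSC replicates 1 to 4, and Ifngr1, the interferon-gamma receptor, of 4.89, 4.96 and 9.94 on TAN replicates 1, 2 and 4, against 10.90, 11.68, 11.72 and 11.51 on G-MDSC replicates 1 to 4. For Ltb, Lcp1 and Ifngr1 the changes were -5.96, -5.47 and -4.85 over all arrays and -1.05, -1.88 and -1.51 with TAN replicate 4 alone. Il17ra, the interleukin-17 receptor, had levels of 5.42, 5.02 and 8.56 on TAN replicates 1, 2 and 4, against 10.60, 11.87, 11.93 and 11.84 on G-MDSC replicates 1 to 4. The same order of arrays was seen for Il13ra1, an interleukin-13 receptor chain, and for Ogfrl1, Ugt1a10 and AB124611. The changes of these 4 genes were -4.86, -5.98, -4.98 and -4.93 over all arrays, and -1.57, -2.48, -1.35 and -1.46 with TAN replicate 4 alone. Rgs3 and Grk6, both of which damp signals of G protein-coupled receptors, and Sephs2, which makes the selenium donor of selenoproteins, changed by -5.86, -5.47 and -5.80 over all arrays and by -4.01, -4.37 and -3.16 with TAN replicate 4 alone. The other 2 Rgs3 probes were called in the opposite direction, at 1.79 and 1.91. Msn, the membrane-cytoskeleton linker moesin, changed by -4.83 ± 0.70 (SE, adjusted p = 9.29e-06), or -3.05 with TAN replicate 4 alone.

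Across all 996 three-fit falls, TAN replicates 1 and 2 lay more than 2 log2 units below TAN replicate 4 on average for 108 genes. The reverse, TAN replicates 1 and 2 more than 2 above TAN replicate 4 among the 1509 three-fit rises, held for 3 genes. The same counts over all genes tested were not made, so neither count is a result about falls or rises. Slc28a2 and Gp2 did not have TAN replicates 1 and 2 far below TAN replicate 4. Slc28a2, a nucleoside transporter, was undetected on every TAN array and at least 11.3-fold lower (adjusted p = 2.71e-05), with levels of 6.92, 10.09, 10.35 and 10.09 on G-MDSC replicates 1 to 4. Gp2, a glycoprotein that binds bacterial fimbriae on gut epithelium, had levels of 4.75, 4.66 and 4.77 on TAN replicates 1, 2 and 4, against 9.10, 9.58, 9.38 and 10.51 on G-MDSC replicates 1 to 4. It was detected on every G-MDSC array and on no TAN array, at least 13.7-fold lower in TAN (adjusted p = 4.16e-12).

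Checkpoint and costimulatory genes had more calls higher than lower, and their ligands differed in direction. Cd274, the checkpoint ligand PD-L1, had levels of 14.05, 14.09 and 14.16 on TAN replicates 1, 2 and 4, against 11.85, 10.76, 10.85 and 11.21 on G-MDSC replicates 1 to 4. The TAN arrays lay close together and all above the G-MDSC arrays, and Cd274 changed by 2.93 ± 0.20 (SE, adjusted p = 6.82e-10). Pdcd1lg2, the related PD-L2, was detected on no G-MDSC array and was at least 6.73-fold higher in TAN (adjusted p = 7.79e-11). Cd83, a maturation marker of antigen-presenting cells, changed by 2.40 ± 0.56 (SE, adjusted p = 0.0011), with G-MDSC replicate 1 inside the TAN range. Lgals9, the Tim-3 ligand galectin-9, had levels of 7.26, 7.75 and 12.26 on TAN replicates 1, 2 and 4, against 11.35, 11.50, 11.83 and 12.07 on G-MDSC replicates 1 to 4. TAN replicates 1 and 2 were below and TAN replicate 4 above every G-MDSC array, and Lgals9 was called lower over all arrays, -2.59 ± 0.70 (SE, adjusted p = 0.0031). Of 22 checkpoint and costimulatory molecules, 13 were called higher and 5 lower, with a median of 0.809 (0.524 at bounds).

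Antigen presentation split by array. For class I genes, 7 of 18 tested members were called higher in TAN and 7 lower over all arrays, with a median of -0.594. With TAN replicate 4 alone 11 were higher and 1 lower, with a median of 0.773. Psmb10, an immunoproteasome subunit, was a three-fit rise of 2.72 ± 0.21 (SE, adjusted p = 2.73e-09). Psme2, a proteasome activator, had levels of 4.49, 4.83 and 9.85 on TAN replicates 1, 2 and 4, against 8.07, 8.54, 8.54 and 8.81 on G-MDSC replicates 1 to 4, so that its change was -2.10 over all arrays and 1.36 with TAN replicate 4 alone (adjusted p = 0.00294). For class II genes, 6 of 12 tested members were called higher in TAN and 2 lower, with a median of 0.612. H2-DMa, which loads peptides onto class II molecules, changed by 2.11 ± 0.30 (SE, adjusted p = 6.24e-06), or 1.03 with the batch term, and Ctss, the protease that trims their invariant chain, by 2.07 ± 0.23 (SE, adjusted p = 3.02e-07). H2-Oa, which restrains that loading in B cells, changed by -3.36 ± 0.41 (SE, adjusted p = 1.22e-06), or -1.90 with TAN replicate 4 alone, beside the B cell markers noted above.

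Interferon-stimulated genes had 14 calls higher and 8 lower of 37, shares near those of all genes (37.6% and 25.6%), and 17 higher and 0 lower with TAN replicate 4 alone. Mx2, an antiviral GTPase, changed by 2.73 ± 0.34 (SE, adjusted p = 1.71e-06), a three-fit rise. Ifitm1, which blocks viral entry, had levels of 7.89, 7.62 and 13.32 on TAN replicates 1, 2 and 4, against 12.85, 12.53, 12.72 and 12.96 on G-MDSC replicates 1 to 4, with TAN replicates 1 and 2 below and TAN replicate 4 above every G-MDSC array. By another Ifitm1 probe the order was the opposite, with 13.21, 13.38 and 12.47 on TAN replicates 1, 2 and 4, and no call (0.49, adjusted p = 0.178). Named ribosomal protein genes had the order of the first Ifitm1 probe. Rps7 had levels of 7.85, 7.99 and 14.26 on TAN replicates 1, 2 and 4, against 13.95, 13.36, 13.41 and 13.45 on G-MDSC replicates 1 to 4, and Rps6, Rpl7a and Rps2 had the same order of arrays, with changes of 0.72, 0.94, 1.72 and 1.51 for the 4 genes with TAN replicate 4 alone. Over the 50 tested, 25 were called higher and 6 lower, with a median of 0.377.

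Stress and signalling genes gave further single rises. Nr4a3, an immediate early nuclear receptor, had levels of 10.98, 10.46 and 8.85 on TAN replicates 1, 2 and 4, against 5.45, 4.76, 4.42 and 4.56 on G-MDSC replicates 1 to 4 and changed by 5.30 ± 0.38 (SE, adjusted p = 1.27e-09). Dusp4, a phosphatase of MAP kinases, changed by 4.85 ± 0.28 (SE, adjusted p = 4.2e-11). Both were three-fit rises, while 9 of 28 immediate early genes were called higher and 6 lower, a median of -0.0201. Among NF-kB subunits and induced regulators, 10 of 22 were called higher and 1 lower. Sod2, the mitochondrial superoxide dismutase, changed by 2.21 ± 0.19 (SE, adjusted p = 1.72e-08), and Nfkbia, the inhibitor I-kappa-B alpha, by -1.57 over all arrays but 0.76 with TAN replicate 4 alone. Tgif1, a corepressor of TGF-beta signalling, changed by 4.03 ± 0.45 (SE, adjusted p = 4.38e-07), and Tgfb3, a TGF-beta ligand, was at least 3.62-fold higher (adjusted p = 3.2e-09), while 8 of 22 TGF-beta pathway genes were called higher and 4 lower, against 37.6% and 25.6% of all genes. The share called higher in the TGF-beta list is near that of all genes and is no result about the list. Icam1, the endothelial and leukocyte adhesion ligand, was not called (0.56 ± 0.44, SE, limma adjusted p = 0.279), with levels of 10.06, 10.34 and 13.08 on TAN replicates 1, 2 and 4, against 10.70, 10.39, 10.72 and 10.57 on G-MDSC replicates 1 to 4. TAN replicate 4 was above every other array, and alone it gave 2.48 (adjusted p = 9.63e-07).

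Oxidant genes had calls in both directions, 8 higher and 8 lower of 22, with a share higher near that of all genes. Rac2, the GTPase that activates the neutrophil NADPH oxidase, had levels of 8.16, 8.19 and 13.10 on TAN replicates 1, 2 and 4, against 13.62, 13.88, 14.00 and 14.05 on G-MDSC replicates 1 to 4 and changed by -4.07 over all arrays and -0.79 with TAN replicate 4 alone. Gpx3, a glutathione peroxidase, was a three-fit rise of 3.35 ± 0.29 (SE, adjusted p = 1.48e-08). Among apoptosis and survival genes, 5 of 20 were called higher and 6 lower, against 37.6% and 25.6% of all genes. The pro-apoptotic Pmaip1 (Noxa) had levels of 5.44, 6.35 and 6.24 on TAN replicates 1, 2 and 4, against 8.83, 9.20, 9.80 and 9.12 on G-MDSC replicates 1 to 4, a change of -3.23 ± 0.34 (SE, adjusted p = 1.6e-07). Bid, another death-promoting member of the Bcl2 family, changed by -1.88 ± 0.15 (SE, adjusted p = 5.42e-09), while a dim second probe was not called (0.22, adjusted p = 0.321). Casp9, the initiator caspase, was undetected on every TAN array and at least 2.27-fold lower, and all 3 were three-fit falls. Of unfolded protein and heat shock genes, 11 of 25 were called higher and 6 lower, beside 37.6% and 25.6% of all genes. Among the rises was Hspa1a, an inducible Hsp70 chaperone, at 2.83 ± 0.36 (SE, adjusted p = 1.74e-06). Tlr8, an endosomal RNA sensor, was undetected on every TAN array and at least 4.4-fold lower without the batch term. Its change was -3.02 over all arrays and -1.81 with the batch term, which is smaller than that bound. The Fc, Toll-like and lectin receptors had 10 calls higher and 6 lower of 28, again near the shares of all genes.

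**Figure D5:**
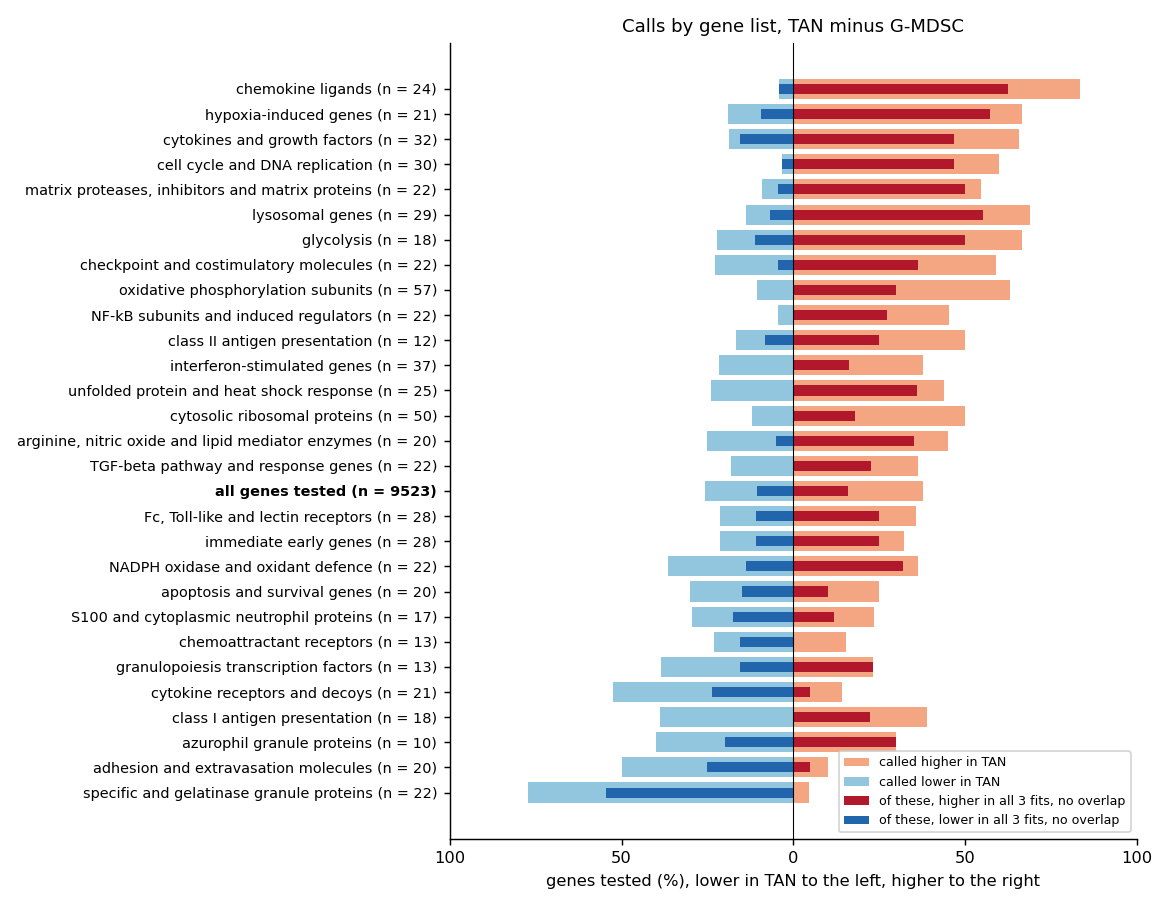
Share of each gene list (rows, with the number of genes tested) called higher in TAN (right, light red) or lower (left, light blue), in percent, with the part called alike in all 3 fits without overlap between arrays in dark colours. Lists are ordered by median change, and all 9523 genes are shown in bold: 37.6% higher and 25.6% lower. Chemokine ligands are at the top and specific and gelatinase granule proteins at the bottom.

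Counts for lymphocyte markers changed when G-MDSC replicate 1 was left out. Of 9 B and plasma cell markers, 5 were called lower in TAN and 0 higher, and 3 were lower and 1 higher without G-MDSC replicate 1. Cd79a, a chain of the B cell receptor, had levels of 6.62, 5.33 and 5.21 on TAN replicates 1, 2 and 4, against 12.49, 7.20, 7.24 and 8.08 on G-MDSC replicates 1 to 4. G-MDSC replicate 1 was the highest array, and the other 3 still lay above all TAN arrays. Of 13 T and NK cell markers, 1 was called higher and 3 lower, but 5 were higher without G-MDSC replicate 1. Il7r, the interleukin-7 receptor, had levels of 9.17, 9.44 and 8.80 on TAN replicates 1, 2 and 4, against 10.07, 5.34, 5.46 and 5.90 on G-MDSC replicates 1 to 4, which puts the TAN arrays above all G-MDSC arrays other than replicate 1. It was called higher over all arrays, but not with the batch term (adjusted p = 0.0542). Hba-a1, a haemoglobin chain, changed by -2.38 ± 0.40 (SE, adjusted p = 4.96e-05), with 4 of 14 erythroid markers lower and 1 higher. Of these 14 markers, 6 were detected in neither group. Endothelial markers had 5 calls higher and 2 lower of 12, and platelet markers 4 and 2 of 12. Over all genes the shares were 37.6% higher and 25.6% lower. With the batch term the endothelial calls were 1 higher and 2 lower, and the platelet calls 2 and 2. Detected in neither group were 4 endothelial and 2 platelet markers. Dendritic cell markers had 0 higher and 2 lower of 9, and chemoattractant receptors 2 and 3 of 13.

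Naive marrow neutrophils gave a point of comparison within each batch. Of the 1509 three-fit rises, 865 had a G-MDSC mean within 1 log2 unit of the NN arrays of the same batch and a TAN mean more than 1 unit from the NN arrays of its own batch. In 156 it was the TAN mean that lay within 1 unit and the G-MDSC mean that did not. Of the 996 three-fit falls, 516 were of the first kind and 109 of the second. Pf4 was of the second kind: TAN averaged 12.60 and G-MDSC 6.28, with NN at 12.58 and 12.67 in the TAN and G-MDSC batches. Gp2 was also of the second kind, with NN at 4.56 and 4.70. These counts describe positions of means and carry no test. The same counts over all genes were not made. The fit with the batch term, which helped choose these genes, rests on the same NN arrays. Which group departs from NN more often was therefore not tested.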

How the data were processed

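The samples were 19 preparations of mouse neutrophils on 1-colour Illumina BeadChips, grouped by their titles, and the members and gene lists were chosen with earlier results of these data known. The deposited non-normalized table holds probe intensity on a linear scale with a detection p-value per probe, exported from GenomeStudio per the submitters' processing notes (version not given in the sources used here). The authors also deposited a normalized intensity table of 17004 probes, whose values equal those of the series table (largest difference 0). Nothing was taken from the label protocols on treatment and extraction, since they concern embedded biopsies.

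Intensities were background corrected from the detection p-values, quantile normalized and log2 transformed by neqc (limma 3.58.1, R 4.3.3, offset 16) from the deposited signals. A probe was kept if its detection p was under 0.01 on at least 3 arrays (13945 probes). The platform annotation gave 13088 of them a gene symbol and left 857 unnamed. The probe with the highest mean represented each gene (9523 genes), and detection in the text is that of this probe unless another is named. Opposite calls between probes occurred in 292 of 2522 genes measured by more than 1 probe (11.6%).

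The 4 groups were fitted with limma (lmFit and eBayes with trend), two-sided, with Benjamini-Hochberg adjustment over all genes and a threshold of 0.05. Array batch was low where the lowest signal was under 30. Every adjusted p is limma's. Fits were also run on simulated data drawn without a batch difference and without a split among TAN arrays. That run does not show how the fits behave where both are present. Bounds set undetected arrays at the lowest detected level of that array and take no account of array batch. Precision is limited by the number of arrays.

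Named genes were the 15 largest three-fit rises and 15 largest three-fit falls with a gene name and detection on every array of the higher group, up to 4 called members per list, and 19 genes given whatever their values. Promoters came from RefSeq, with an entry for 147 of the 178 named genes.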

Additional observations from a re-analysis of the deposited data

Results flagged for a closer look

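Among the 178 named genes, 26 had a sample of G-MDSC far from the other 3, by a gap of more than Dixon's 95% limit for 4 samples. The sample was G-MDSC replicate 1 in 25 of them and G-MDSC replicate 2 in 1. Chance alone flags about 1 in 20 groups, and the groups of 3 TAN arrays cannot be tested this way. Lymphocyte genes were high on G-MDSC replicate 1. Cd79a stood at 12.5 there, against 7.2 to 8.08 on the other G-MDSC arrays, Fcmr, an Fc receptor for IgM, at 13.2 against 8.08 to 8.79, and Mzb1, a plasma cell chaperone, at 11.4 against 7.01 to 7.63. Among T cell genes, Cd2 stood at 9.23 against 5.54 to 6.14, Il7r at 10.1 against 5.34 to 5.9 and Ets1 at 12.1 against 9.96 to 10.3. The array was also high for Ms4a3, of granulocyte precursors (7.68 against 6.5 to 6.69), Hilpda (11.2 against 8.03 to 8.38), Odc1 (11.7 against 9.46 to 9.69), Dusp4 (6.12 against 4.57 to 4.77) and Rps7 (13.9 against 13.4). Krt18 was flagged there too (5.32 against 4.45 to 4.51), but it was detected on no G-MDSC array, G-MDSC replicate 1 included.

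The remaining genes set apart on G-MDSC replicate 1 were low there. Csf3r stood at 15 against 15.4 to 15.5, Il6ra at 8.41 against 10.4 to 10.8, Il17ra at 10.6 against 11.8 to 11.9 and Padi4 at 6.69 against 8.59 to 8.85. Itgb2 was at 10.2 against 11 to 11.2, Lcp1 at 12.7 against 14 to 14.2, Lyz2 at 14.3 against 15.3 and Rgs3 at 10.4 against 12.3 to 12.7. Slc28a2 was at 6.92 against 10.1 to 10.3, Ugt1a10 at 11 against 12.1 to 12.2, Hpgd at 7.58 against 8.4 to 8.53, Ctsa at 6.2 against 9.59 to 10.1 and Ms4a7 at 5.59 against 6.85 to 7.08. Aldoc was the gene set apart on G-MDSC replicate 2, at 5.09 against 5.46 to 5.49. That value lies under 5.39, the lowest detected level on G-MDSC replicate 2. Of 170 named genes called over all arrays, 165 kept their call and direction without G-MDSC replicate 1.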

How the results depend on the processing

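The count of genes called was 6022. The batch term brought it to 3885. TAN replicate 4 alone gave 4174, and 2884 together with the batch term, where 13.6% of the 6022 had the opposite sign. Other settings with a single change lay between 4636 (only the TAN and G-MDSC arrays) and 8008 (array weights), and leaving out one array gave 5250 to 6678. At a fold of 2 or more it was 3816, 2083 without background correction, 2289 from the authors' deposited normalized table, and 3436 to 4549 when one array was left out. The NN batches differed in 407 genes, and in 1308 with median scaling. Deviations from the group means correlated at 0.188, -0.00883 and 0.204 between TAN and G-MDSC arrays of replicate number 1, 2 and 4. Arrays of unlike number were not compared, so whether the numbers pair the samples is not settled. The fit with replicate number as a block called 5802 genes. Of 170 named genes called, 143 kept call and direction with the batch term, 132 with TAN replicate 4 alone, 148 with only the TAN and G-MDSC arrays and 167 with median scaling.

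Some changes turned their sign. With TAN replicate 4 alone they became -0.187 (Ccl5), 0.188 (Cxcr4), 0.52 (H2-T23), 0.558 (Ifitm1), 0.572 (Lgals9), 1.7 (Ndufc2), 0.764 (Nfkbia), 0.72 (Plin2), 1.36 (Psme2), 1.72 (Rpl7a), 1.51 (Rps2), 0.942 (Rps6) and 0.719 (Rps7), and the list medians 0.773 (class I), -0.653 (dendritic cell) and -0.124 (platelet). With the mean of all probes, Bcl2l1 was 0.373 and Gusb -0.699. With median scaling, Arg2 was -0.0672 and the TGF-beta list -0.0559. Icam1 was -0.216 with array weights and -0.4 to 1.11 with one array left out (-0.4 without TAN replicate 4). Tnf was -0.58 (batch term), -0.392 (median scaling), -0.0187 (authors' deposited table), -0.697 (array weights), -1.1 (without TAN replicate 4), -0.276 (without G-MDSC replicate 2) and -0.114 (without G-MDSC replicate 4), within -1.1 to 0.603 over arrays left out. With the batch term the medians were 0.0757 (S100), 0.347 (erythroid), -0.0596 (platelet) and -0.184 (endothelial). With array weights they were 0.0105 (S100) and 0.0641 (granulopoiesis factors), and the last was 0.052 without TAN replicate 4 and 0.0893 without G-MDSC replicate 1, within -0.462 to 0.0893 over arrays left out. The cause was not tested. Dim genes are limited by signal over background.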

Other observations

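Some genes outside the rule for named genes, picked after their values were seen, separated the groups with little spread within either. A range of at most 1 log2 unit within TAN and within G-MDSC was met by 909 of the three-fit rises and 575 of the three-fit falls. Itgad, the integrin chain CD11d of splenic and tissue phagocytes, had levels of 6.67, 6.50 and 6.28 on TAN replicates 1, 2 and 4, against 10.92, 10.80, 10.79 and 10.57 on G-MDSC replicates 1 to 4. All TAN arrays lay well below all G-MDSC arrays, a change of -4.29 ± 0.24 (SE, adjusted p = 3.12e-11) in limma. Septin5, a filament-forming GTPase, and Cd244a, the receptor 2B4, were undetected on every TAN array and at least 8.44-fold and 3.7-fold lower in TAN. Slamf9, a receptor of the same family as Cd244a, had levels of 12.41, 12.45 and 12.23 on TAN replicates 1, 2 and 4, against 6.94, 7.06, 6.76 and 7.27 on G-MDSC replicates 1 to 4, and Lgals1, the immune-regulating galectin-1, of 13.88, 13.91 and 13.68 on TAN replicates 1, 2 and 4, against 9.70, 9.22, 9.12 and 9.77 on G-MDSC replicates 1 to 4. Both were higher on every TAN array.

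A further set had TAN near naive marrow neutrophils and G-MDSC away from them. Lhfpl2, a membrane protein, averaged 10.31 ± 0.02 in TAN and 7.04 ± 0.44 in G-MDSC (SD, n = 3 and 4), with NN arrays at 10.32 in both batches. Sphk1, which makes sphingosine 1-phosphate, averaged 8.68 ± 0.72 in TAN and 4.53 ± 0.23 in G-MDSC, with NN arrays at 9.10 in the batch of TAN and 8.93 in that of G-MDSC. Sphk1 was detected on no G-MDSC array. Inhba averaged 11.64 ± 0.19 in TAN and 8.54 ± 0.57 in G-MDSC, with NN arrays at 11.66 and 11.64. These positions were not tested.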
